A study of Sus scrofa with 59 samples.

Results

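Among 59 pigs, the 20 longissimus dorsi muscles with the highest and the 20 with the lowest expression of 8 extracellular matrix genes were compared, so 40 of the 59 arrays entered the comparison and the 19 in between were left out. The groups were chosen by measured values. For COL1A2, COL6A3, DCN, LUM, BGN, SPARC, FN1 and FBN1 the probe set with the highest mean over all 59 arrays was taken, its values were standardised across arrays, and the 8 were averaged to a matrix score. Muscles with a high score are called matrix-rich and those with a low score matrix-poor. All pigs of both groups were LD/LW x Duroc animals, 170 days old, and had been reared together on an experimental farm with free access to feed. Per the labels, they had been selected by traits of meat composition and quality, intramuscular fat among them, whose values were not analysed here. No treatment separated the pigs, and the labels give neither sex nor array batch. Each array holds RNA from the muscle of 1 pig, so the replicates were separate animals. The score is itself a readout of these RNA samples, so each difference below is an association across pigs.

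Skeletal muscle fibres lie in a connective tissue scaffold of fibrillar collagens, sheets of basement membrane, small leucine-rich proteoglycans that bind collagen fibrils, and glycoproteins such as fibronectin and the fibrillins. Fibroblasts and fibro-adipogenic progenitors, mesenchymal cells that can give rise to fibroblasts or to fat cells, secrete most of it. Procollagen is hydroxylated and folded in the endoplasmic reticulum, carried out in coated vesicles, trimmed outside the cell and cross-linked by lysyl oxidases, while matrix proteases remodel the deposited fibres. In pork, the amount and cross-linking of intramuscular connective tissue contribute to the toughness of meat.

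The values that chose the groups are given as a description, without a test. The matrix score had a median of 0.808 in the matrix-rich and -0.732 in the matrix-poor muscles. It ran on without a gap at the borders: the lowest matrix-rich score was 0.347 against 0.282 for the next pig outside, and the highest matrix-poor score was -0.394 against -0.382. Pig 44, at 2.18, and pigs 19 and 26, at 1.76 and 1.57, stood above the fourth pig at 1.15. FN1, which encodes fibronectin, an adhesive glycoprotein, differed most among the 8 genes. Its log2 expression ranged from 10.94 to 12.01 (median 11.33) in the matrix-rich and from 9.85 to 10.71 (median 10.31) in the matrix-poor muscles, a gap without overlap. LUM, which encodes the proteoglycan lumican, overlapped more, at 9.94 to 11.64 (median 10.88) against 9.59 to 10.91 (median 10.22). The probe set for COL1A2, a chain of type I collagen, hardly took part: it was dim and ranged from 6.90 to 7.65 (median 7.27) against 6.94 to 7.47 (median 7.20), a mean difference of 0.083. The other 5, COL6A3 of type VI collagen, the proteoglycan genes DCN and BGN, the collagen-binding SPARC and the fibrillin gene FBN1, differed by 0.46 to 0.62 on the log2 scale, and DCN, SPARC and FBN1 did so without overlap. Other probe sets of the same genes often did not follow the chosen ones over the 59 arrays. The correlation was 0.66 for FBN1, 0.04 for COL1A2, -0.08 for DCN and -0.27 for SPARC. For FN1, which had 4 probe sets, it ran from -0.36 to 0.40. A score from the mean of all probe sets kept 19 of the 20 matrix-rich and 18 of the 20 matrix-poor pigs.

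**Figure D1:**
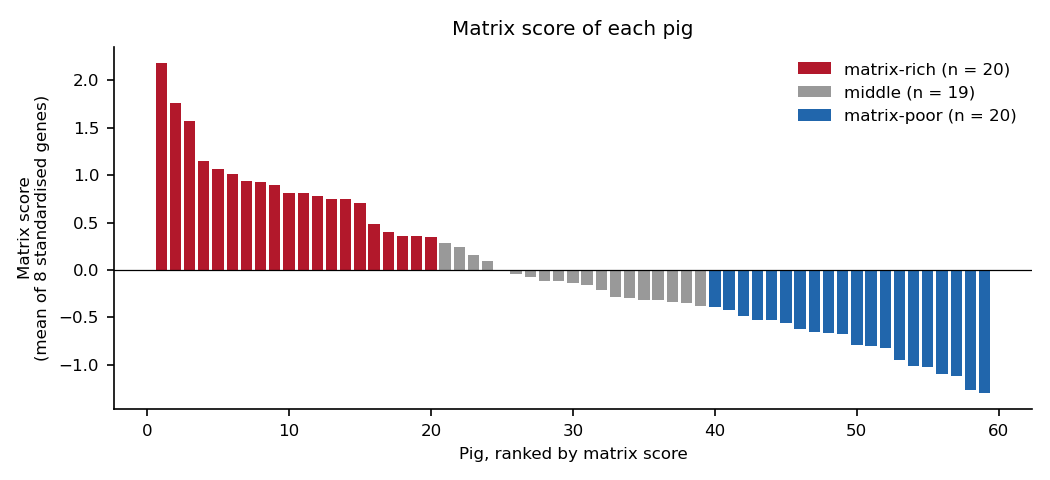
Matrix score of each of the 59 pigs, the mean of 8 standardised genes in SD units, on the vertical axis, with pigs ranked by score on the horizontal axis and coloured by group. The score falls gradually from 2.18 to -1.29, and no gap separates the 19 middle pigs from either group.

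CKM, the muscle creatine kinase gene, lay between 14.53 and 14.70 in all 40 muscles and the slow myosin gene MYH7 between 13.98 and 14.75, near the top of the array's range of 2.39 to 15.04, while ACTA1 and MYH4 had no tested probe set under those symbols. Array medians were 6.23 to 6.29 in the matrix-rich and 6.22 to 6.29 in the matrix-poor group. EIF1AY, a gene of the Y chromosome, fell into separate clusters, at or below 3.52 and at or above 9.97, and the upper cluster held 8 of the 20 matrix-rich and 11 of the 20 matrix-poor pigs. The difference between 3-prime and 5-prime control probe sets of EF1A, which grows as RNA is degraded, had a median of 1.69 in the matrix-rich and 1.86 in the matrix-poor group. With EIF1AY as a covariate 1186 probe sets were higher and 578 lower in the comparison below, and with the EF1A difference 1220 and 711. The array of pig 36, a matrix-rich pig, stood apart from the rest, with a median correlation with the other arrays of 0.977, and results that rest on it are given without it as well.

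Of 11990 probe sets tested with limma, 1858 (15.5%) differed between the groups at an adjusted p under 0.05, 1199 (10.0%) higher and 659 (5.50%) lower in the matrix-rich muscles. Counting each named gene once, by its brightest probe set, 781 of 4920 genes (15.9%) were called, 514 higher (10.4%) and 267 lower (5.43%). A gene is called here when it passes this threshold, and each difference is the matrix-rich mean minus the matrix-poor mean on the log2 scale, with its standard error. The higher genes had the larger differences: 112 of them and 7 of the lower genes passed 0.5. Over all called probe sets, the median difference was 0.32 for the higher and -0.20 for the lower ones. The balance of directions depended on the scaling. After each array was re-centred on its own median, 1042 probe sets were higher and 1320 lower, so that the higher share of the calls was 44.1% where it had been 64.5%. Of the 1858 called probe sets, 894 carried no gene symbol, and whether some of them measure the 8 score genes was not tested.

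**Figure D2:**
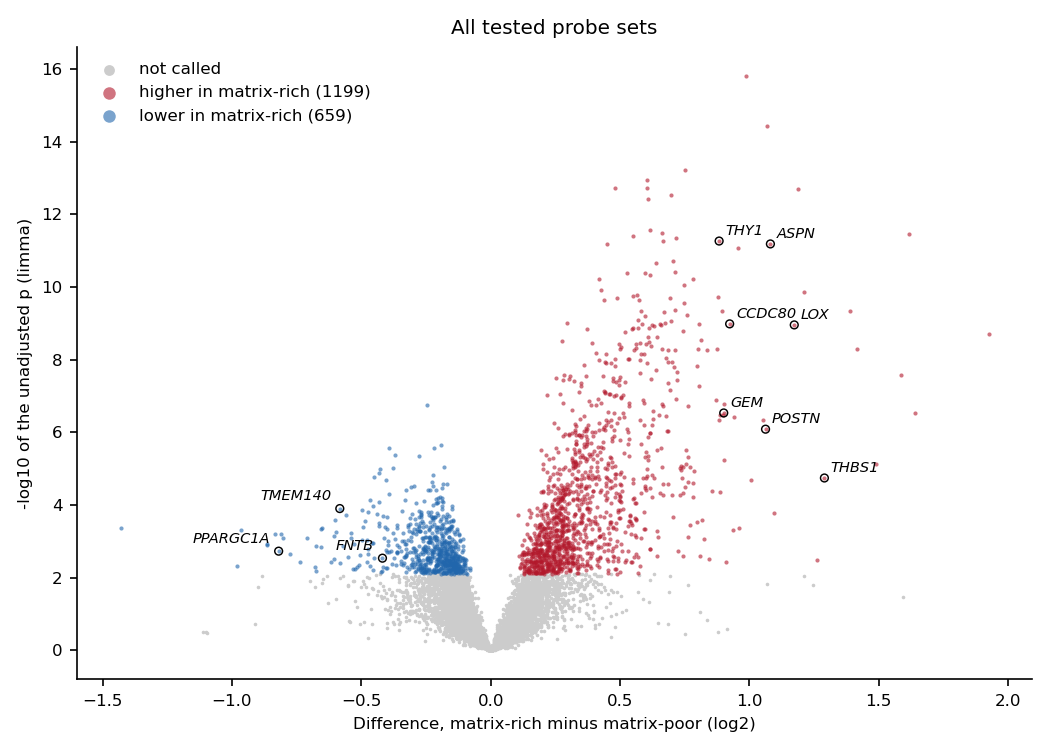
Difference between matrix-rich and matrix-poor muscles (log2, horizontal axis) against -log10 of the unadjusted limma p (vertical axis) for the 11990 tested probe sets, with the 8 score genes left out. The 1199 higher probe sets (red) spread further from 0 than the 659 lower ones (blue); several genes described in the text are circled.

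Matrix genes outside the score were higher in the matrix-rich muscles. Of 151 genes on 7 matrix lists, 75 had a probe set and 54 of those exceeded the signal filter. Of the 54, 34 were called higher and none lower, beside 10.4% and 5.43% of all genes. Also at an unadjusted p under 0.05, 0 were lower. The median difference was 0.33 beside -0.0135 over all 4920 genes. Across 17 other settings the count of higher matrix genes lay between 27 and 37, and 27 was the count with the mean of the macrophage genes as a covariate. In whole muscle, more matrix-producing cells and more RNA per cell cannot be told apart.

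Among fibrillar collagens, COL5A1 and COL5A3, chains of type V collagen, a minor collagen that helps set the diameter of type I fibrils, were higher. COL5A1 ranged from 8.16 to 9.13 (median 8.55) in the matrix-rich and from 7.85 to 8.48 (median 8.09) in the matrix-poor muscles. All 20 matrix-rich muscles lay above the matrix-poor median, and 10 lay above every matrix-poor muscle. The difference was 0.47 ± 0.07 (adjusted p = 3.79e-06), and it was 0.28 ± 0.06 for COL5A3 (adjusted p = 0.00161). COL2A1, the collagen of cartilage, was measured at a low level with a difference of -0.039 ± 0.044 (adjusted p = 0.56). COL3A1, COL5A2 and COL11A1 lay below the filter on signal and COL1A1 had no probe set under that symbol, so the main fibrillar collagens of muscle were hardly measured here. COL6A2, which pairs with the score gene COL6A3 in the beaded filaments of type VI collagen around fibres, was higher by 0.28 ± 0.04 (adjusted p = 2.81e-06), with 16 of 20 matrix-rich muscles above every matrix-poor muscle.

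Of 6 basement membrane genes measured, 5 were called higher, beside 10.4% of all genes, with small differences and wide overlap. NID2, encoding nidogen 2, which links laminin to type IV collagen, ranged from 8.21 to 9.35 (median 8.83) against 7.58 to 9.00 (median 8.38), a difference of 0.45 ± 0.09 (adjusted p = 0.000746). COL15A1, a collagen at the outer face of basement membranes, was higher by 0.34 ± 0.09 and the laminin chain LAMB1 by 0.25 ± 0.07 (adjusted p = 0.0053 and 0.00708). The laminin chain LAMB2 and COL4A2, a chain of type IV collagen, were higher by 0.23 and 0.24, with adjusted p of 0.0285 and 0.0498, and the calls were lost in 6 and 11 of the 17 other settings. LAMC1, the laminin chain shared by most muscle laminins, was at 10.72 to 11.38 (median 11.00) against 10.59 to 11.72 (median 11.01), and its difference had a 95% interval from -0.18 to 0.11. With the macrophage mean as a covariate, 2 of the 6 were called.

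The proteoglycans held some of the largest differences. ASPN encodes asporin, a small leucine-rich protein that binds collagen and TGF-beta. Its expression was 9.14 to 10.52 (median 9.49) in the matrix-rich and 7.84 to 9.19 (median 8.60) in the matrix-poor muscles, and 19 of 20 matrix-rich muscles lay above every matrix-poor one. That is 2.12-fold on the array's scale, a difference of 1.08 ± 0.11 (adjusted p = 4.32e-09). PRELP, which anchors basement membrane to collagen, was 7.95 to 9.53 (median 8.46) against 7.44 to 8.21 (median 7.82), with 17 muscles above every matrix-poor one and a difference of 0.68 ± 0.10 (adjusted p = 1.39e-06). VCAN, encoding versican, a large proteoglycan of loose connective tissue, was higher by 0.69 ± 0.14 (adjusted p = 0.000796) from a low level. The cartilage proteoglycan gene ACAN, also dim, differed by -0.087 ± 0.044 (adjusted p = 0.167).

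Of 13 elastic fibre and glycoprotein genes, 9 were called higher, beside 10.4% of all genes, with a median difference over the 13 of 0.44. THBS1, encoding thrombospondin 1, a glycoprotein that can activate latent TGF-beta, had the largest difference of all called genes that also followed the score over the 59 pigs. It ranged from 8.47 to 11.71 (median 9.75) against 6.87 to 10.13 (median 8.51), and the groups overlapped widely. The difference was 1.29 ± 0.27, or 2.44-fold (adjusted p = 0.000578), and it was 1.20 without pig 36, whose value was the highest. POSTN, encoding periostin, a protein of collagen assembly that is induced in growing and injured tissue, was dim, at 6.06 to 8.07 (median 7.28) against 4.70 to 7.15 (median 6.12), and differed by 1.06 ± 0.18 (adjusted p = 4.84e-05). FNDC1, a protein with fibronectin type III repeats, differed by 0.89 ± 0.19 (adjusted p = 0.00115). MGP, encoding matrix Gla protein, an inhibitor of calcification, was bright and clearly apart: it ranged from 11.90 to 13.49 (median 12.66) against 11.53 to 12.31 (median 12.09), with 18 of 20 above every matrix-poor muscle and a difference of 0.64 ± 0.09 (adjusted p = 2.09e-06). The other called members were FBLN1, MFAP5 and TNXB, which belong to or associate with elastic fibres and collagen, and the dermatopontin and cartilage intermediate layer protein genes DPT and CILP, with differences from 0.40 to 0.50. THBS2 and SPARCL1, relatives of THBS1 and SPARC, had adjusted p of 0.355 and 0.0681.

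**Figure D3:**
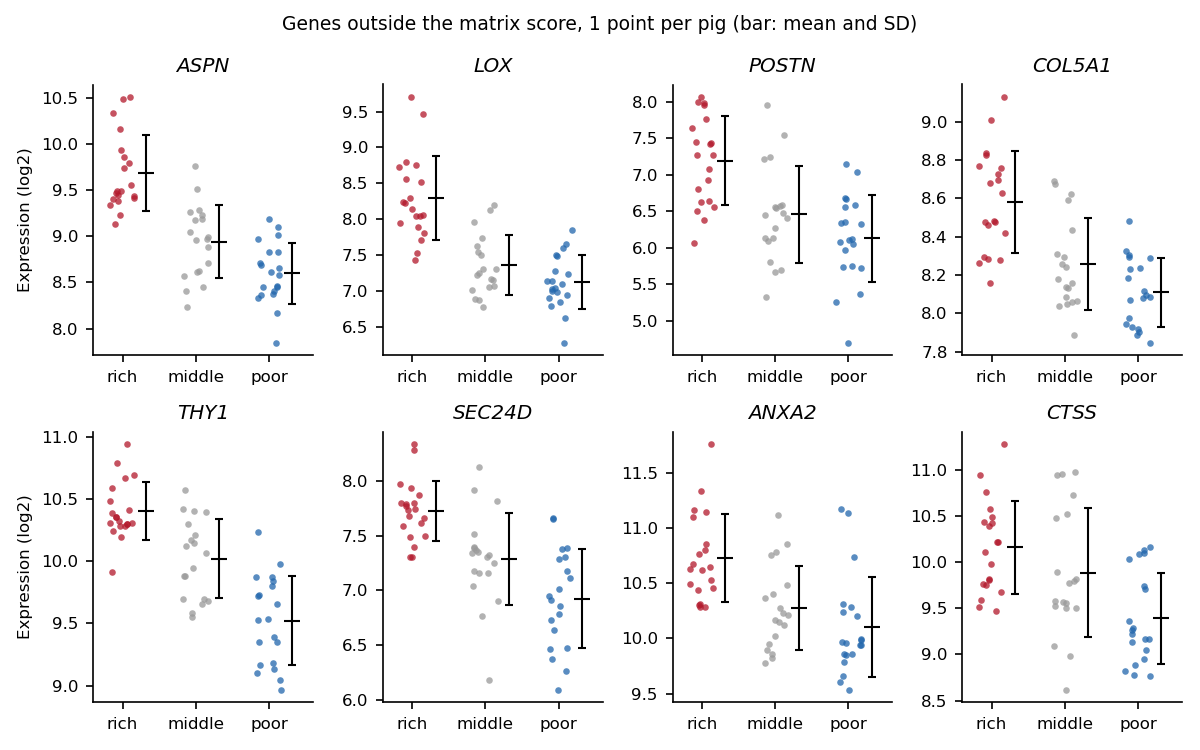
Log2 expression (vertical axes) of 8 genes outside the score in each of 20 matrix-rich, 19 middle and 20 matrix-poor pigs, 1 point per pig, with bars for the group mean and SD. Nearly all matrix-rich points of ASPN, at 9.14 to 10.52, lie above the matrix-poor points, at 7.84 to 9.19, while other genes overlap more.

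The machinery that folds, trims and cross-links collagen was partly higher. Of 15 measured genes, 7 were called higher and none lower, beside 10.4% and 5.43% of all genes. LOX, encoding lysyl oxidase, which starts the cross-links between collagen and elastin molecules, ranged from 7.42 to 9.71 (median 8.18) against 6.27 to 7.85 (median 7.07). Of the 20 matrix-rich muscles, 16 were above every matrix-poor one. The difference was 1.17 ± 0.15, or 2.26-fold (adjusted p = 2.38e-07). FKBP10, a collagen chaperone of the endoplasmic reticulum, was 6.90 to 7.49 (median 7.13) against 6.35 to 6.83 (median 6.68) and did not overlap at all, with a difference of 0.48 ± 0.05 (adjusted p = 3.42e-10). Genes without overlap numbered 3 of the 4920 tested (0.0610%), all higher, and 0 (0.00%) lower. CRTAP, a subunit of a prolyl hydroxylase complex that acts on collagen, had 19 of 20 muscles above every matrix-poor one (0.42 ± 0.05, adjusted p = 2.61e-08). PCOLCE2, an enhancer of procollagen trimming, was higher by 0.62 ± 0.09, the chaperone FKBP14 by 0.46 ± 0.07, TRAM2, a translocation protein used in collagen synthesis, by 0.46 ± 0.07 and the lysyl oxidase relative LOXL1 by 0.32 ± 0.09, with adjusted p of 0.017 at most. The call of LOXL1 was lost in 5 of the 17 other settings. The hydroxylases PLOD1, PLOD3 and P4HA2 and the procollagen protease BMP1 had differences from -0.27 to -0.0545, none called. COLGALT1, which glycosylates collagen, the hydroxylase complex member P3H4 and the lysyl oxidase relative LOXL4 differed by 0.10, 0.084 and 0.14 and were not called, COLGALT1 except with the heat shock mean as a covariate (adjusted p = 0.0276). The collagen chaperone SERPINH1 differed by 0.24 (adjusted p = 0.108), and it was called in 3 of 17 other settings, with an adjusted p of 0.000523 with the heat shock mean as a covariate.

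Of 31 endoplasmic reticulum genes of general folding and secretion, 8 were called higher and 1 lower, beside 10.4% and 5.43% of all genes. The median difference was 0.096. SEC24D, a coat subunit of the vesicles that export procollagen, ranged from 7.30 to 8.33 (median 7.74) against 6.09 to 7.66 (median 6.93), all 20 above the matrix-poor median, a difference of 0.80 ± 0.11 (adjusted p = 1.71e-06). KDELR3, a receptor that returns escaped chaperones, ranged from 7.67 to 8.78 (median 7.96) against 6.93 to 7.89 (median 7.29) and differed by 0.71 ± 0.08 (adjusted p = 2.07e-08). CKAP4, a membrane protein of the rough endoplasmic reticulum, differed by 0.46 ± 0.09 (adjusted p = 0.000623). The chaperone genes HSPA5 and CALR differed by 0.048 and 0.10 and were not called. DDIT3, a transcription factor of the stress response of this compartment, was lower by 0.38 ± 0.13 (adjusted p = 0.0327). With the macrophage mean as a covariate the higher genes of this list numbered 2, and with the heat shock mean 13.

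Of 12 matrix proteases and inhibitors, 7 were called higher and none lower, beside 10.4% and 5.43% of all genes. FAP, a surface protease of activated fibroblasts, ranged from 8.15 to 9.01 (median 8.54) against 7.47 to 8.42 (median 7.86) and differed by 0.69 ± 0.08 (adjusted p = 6.88e-08). CTSK, encoding the collagen-degrading cathepsin K, was 8.30 to 9.51 (median 8.66) against 7.66 to 8.53 (median 8.11), a difference of 0.62 ± 0.08 (adjusted p = 2.38e-07). MMP2, which cleaves type IV and denatured collagen, was higher by 0.58 ± 0.08 (adjusted p = 5.73e-07), and its activator MMP14 by 0.22 ± 0.05 (adjusted p = 0.00335). SERPINE2, an inhibitor of serine proteases, differed by 0.56 ± 0.15 (adjusted p = 0.01). In all 20 matrix-rich muscles FAP, CTSK and MMP2 lay above the matrix-poor medians. Genes of breakdown and genes of synthesis were higher in the same muscles. The inhibitors TIMP1 and TIMP2 differed by 0.41 and 0.10, with adjusted p of 0.0772 and 0.391, so neither was called. With the macrophage mean as a covariate 4 of the 12 were called higher.

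Signalling genes that act on the matrix moved less. Of 12 genes of the TGF-beta group, 4 were called higher and none lower, beside 10.4% and 5.43% of all genes. The median difference was 0.049. FST, encoding follistatin, an antagonist of activins and myostatin, differed by 0.56 ± 0.15 (adjusted p = 0.00914), the receptor gene TGFBR1 by 0.29 ± 0.07 and the ligand gene TGFB3 by 0.29 ± 0.08 (adjusted p = 0.00402 and 0.0116). BMP4, another ligand of the family, differed by 0.24 ± 0.08 (adjusted p = 0.043) and lost its call in 10 of 17 other settings. TGFB1 lay below the filter, TGFB2 differed by -0.42 (95% interval -0.81 to -0.030) and the myostatin gene MSTN by 0.46 (0.072 to 0.86), and neither passed the threshold. In the IGF system 1 of 6 genes was higher and 1 lower. IGFBP6, a binding protein that prefers IGF2, was 8.73 to 10.24 (median 9.15) against 8.05 to 9.07 (median 8.67), a difference of 0.53 ± 0.09 (adjusted p = 4.74e-05). The receptor gene IGF2R was lower by 0.14 ± 0.05 (adjusted p = 0.038), a call lost in 10 of 17 other settings. IGF1 and IGF2 differed by 0.089 and 0.072 and were not called.

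Receptors through which cells hold on to matrix were mostly not called. Of 11 measured, 2 were higher and 1 lower, beside 10.4% and 5.43% of all genes. The median difference of the 11 was -0.016. The integrin chain ITGB3, a subunit of vitronectin and fibronectin receptors, was dim and higher by 0.33 ± 0.06 (adjusted p = 0.000262), and PARVA, an adaptor between integrins and actin, by 0.25 ± 0.06 (adjusted p = 0.00277). The membrane proteoglycan SDC4 was lower by 0.26 ± 0.08 (adjusted p = 0.0173). ITGB1, the main beta chain of muscle integrins, had a difference of -0.058 with a 95% interval from -0.27 to 0.15.

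Markers of fibroblasts and fibro-adipogenic progenitors were higher, 8 of 11 measured and none lower, beside 10.4% and 5.43% of all genes. The median difference was 0.43. THY1, a surface protein of fibroblasts, ranged from 9.91 to 10.94 (median 10.34) against 8.96 to 10.24 (median 9.53). Of the matrix-rich muscles, 18 were above every matrix-poor one, a difference of 0.88 ± 0.09 (adjusted p = 4.05e-09). VIM, encoding the mesenchymal filament protein vimentin, was higher by 0.59 ± 0.08, and the chemokine gene CXCL12 by 0.60 ± 0.11 (adjusted p = 9.24e-07 and 0.000203). Another tested CXCL12 probe set differed by 0.10 and was not called. C3, a complement component that progenitors of muscle express, differed by 0.82 ± 0.20 (adjusted p = 0.0046) but overlapped widely, at 7.41 to 9.22 (median 8.58) against 6.51 to 8.73 (median 7.57). PDGFRA, a defining marker of these progenitors, had no probe set under that symbol. Several matrix-associated genes outside the lists were among the 12 largest positive differences. CCDC80, a secreted matrix protein, differed by 0.92 ± 0.12 (adjusted p = 2.37e-07). AEBP1, which binds collagen and promotes fibril assembly, differed by 0.88 ± 0.12 (adjusted p = 7.42e-07), and CDH11, the cadherin of mesenchymal cells, by 0.87 ± 0.14 (adjusted p = 1.04e-05). For CCDC80, AEBP1 and CDH11, each of the 20 matrix-rich muscles lay above the matrix-poor median.

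Macrophage genes were also higher, 9 of 10 tested, beside 10.4% of all genes. Another 5 genes of this list lay below the filter. The mean of the 10 ranged from 6.98 to 8.24 (median 7.54) in the matrix-rich and from 6.46 to 7.97 (median 7.05) in the matrix-poor muscles, so the groups overlapped. CTSS, encoding the lysosomal protease cathepsin S of antigen-presenting cells, was 9.47 to 11.28 (median 10.17) against 8.76 to 10.16 (median 9.25), a difference of 0.77 ± 0.15 (adjusted p = 0.000331). C1QC, a chain of complement C1q made by macrophages, differed by 0.74 ± 0.16 (adjusted p = 0.0012) and LAPTM5, a lysosomal protein of blood cells, by 0.67 ± 0.14 (adjusted p = 0.000806). AIF1, a calcium-binding protein of macrophages, differed by 0.53 ± 0.13 (adjusted p = 0.00489). CD163, a scavenger receptor of tissue macrophages, was not called, at 6.60 to 8.40 (median 7.03) against 5.73 to 7.98 (median 6.81), and PTPRC, which marks all leukocytes, lay below the filter, as did all 11 measured genes of T, B and mast cells. With the mean of the 10 as a covariate in limma, 709 probe sets were higher and 389 lower across the array, and 6 of the 11 fibroblast genes were called higher. None of the 10 was then called, as the covariate was built from them.

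Few markers of other cells were called, beside 10.4% higher and 5.43% lower over all genes. None of 12 endothelial genes was called by limma (2 had an unadjusted p under 0.05), with a median difference of 0.064: PECAM1, an adhesion protein between endothelial cells, differed by 0.20 (95% interval 0.027 to 0.37, adjusted p = 0.102) and VWF, the clotting factor they store, by 0.069 (-0.11 to 0.25). Of 7 smooth muscle and pericyte genes, PDGFRB, the pericyte growth factor receptor, was higher by 0.21 ± 0.06 (adjusted p = 0.0138), while the smooth muscle actin gene ACTA2 differed by 0.43 ± 0.16 (adjusted p = 0.055). ACTA2 was called in 6 of 17 other settings, among them the slope on the score over 59 pigs (adjusted p = 0.000576), array weights (0.0181) and the comparison without pig 36 (0.0301). Of 6 genes of satellite cells and myogenic regulation, CHRNA1, a subunit of the acetylcholine receptor, was higher by 0.30 ± 0.07 (adjusted p = 0.00326). None of 3 nerve genes, the single tendon gene or the single red blood cell gene was called (1 of these 5, the tendon gene, had an unadjusted p under 0.05).

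Fat cell genes were divided. FABP4, the fatty acid binding protein of adipocytes, ranged from 10.12 to 11.77 (median 11.35) against 10.10 to 11.55 (median 10.80), overlapping over almost the whole range, with a difference of 0.50 ± 0.11 (adjusted p = 0.00172). CIDEA, a lipid droplet protein, differed by 0.56 ± 0.14 (adjusted p = 0.00434). The other measured adipocyte genes, CFD, LEP and LPL, were not called, and ADIPOQ, which encodes adiponectin, lay below the filter. Of 8 genes of lipid synthesis, 3 were higher, beside 10.4% of all genes. They were ELOVL6, a fatty acid elongase (0.59 ± 0.12, adjusted p = 0.000576), DGAT2, which completes triglycerides (0.59 ± 0.16, adjusted p = 0.00676), and the desaturase gene SCD (0.52 ± 0.17, adjusted p = 0.0307). With the mean of the adipocyte genes as a covariate 1 of the 8 was called, and the count of higher probe sets over the array was 1145.

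Genes of the non-muscle actin cytoskeleton, annexins and their partners were higher as a group. Of 21 tested, 16 were called higher and none lower, beside 10.4% and 5.43% of all genes, with a median difference of 0.35. ANXA2, an annexin that binds membranes and S100A10, ranged from 10.28 to 11.76 (median 10.64) against 9.53 to 11.17 (median 9.96), a difference of 0.63 ± 0.13 (adjusted p = 0.000577). All 20 matrix-rich muscles lay above the matrix-poor median. LGALS3, encoding galectin 3, differed by 0.62 ± 0.14, ANXA1 by 0.61 ± 0.11 and the calcium-binding S100A11 by 0.61 ± 0.11 (adjusted p of 0.0015 at most). With the macrophage mean as a covariate 3 of the 21 were called higher, and under the other 16 settings at least 14 were.

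**Figure D4:**
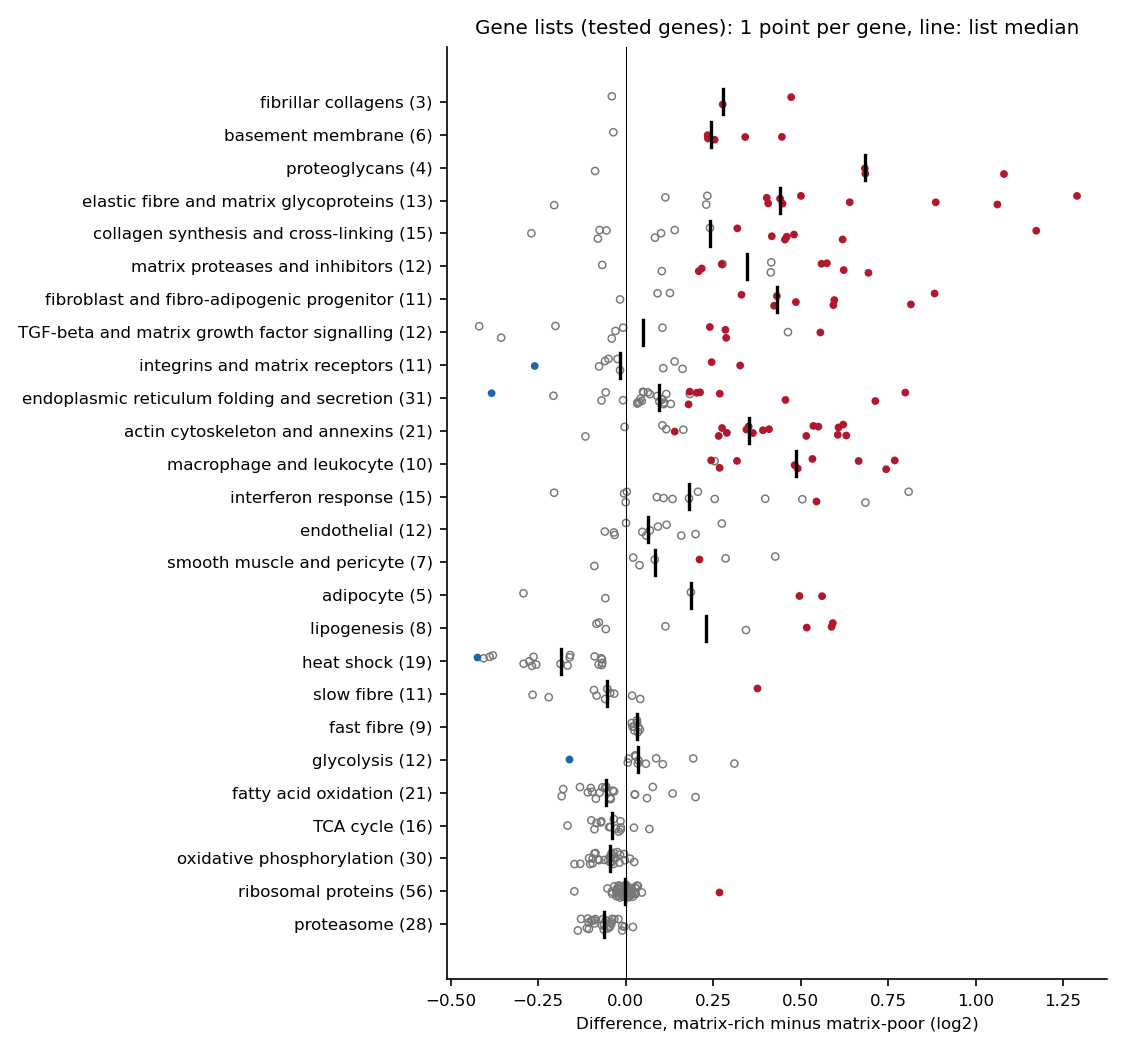
Difference between matrix-rich and matrix-poor muscles (log2, horizontal axis) for the tested genes of the lists named at the left (rows), 1 point per gene, with called genes filled (red higher, blue lower) and a short line at each list's median. Points of the matrix, fibroblast, macrophage and actin lists lie mostly to the right of 0, while oxidative phosphorylation genes stay between -0.15 and 0.02.

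Few genes of the muscle fibres' own programmes were called, beside 15.9% of all genes tested. Of 30 oxidative phosphorylation genes, 21 of fatty acid oxidation, 16 of the TCA cycle and 9 of glycogen metabolism, none was called by limma; at an unadjusted p under 0.05 there were 4, 1, 2 and 4. The oxidative phosphorylation genes had differences from -0.15 to 0.024, 28 of the 30 below 0, and their 95% intervals stayed between -0.26 and 0.12. Of 12 glycolytic genes, PKM, encoding pyruvate kinase, was lower by 0.16 ± 0.05 (adjusted p = 0.0133). The other 11 had positive differences, none called, and 4 of them had an unadjusted p under 0.05. The 9 fast fibre genes had differences from 0.017 to 0.041, none with an unadjusted p under 0.05, but their mean of 14.17 to 14.39 in the matrix-rich muscles lay near the top of the array's range, where signals can be compressed. Of 6 calcium handling genes none was called and 1 had an unadjusted p under 0.05. Among 11 slow fibre genes, TPM3, a tropomyosin gene that also has non-muscle products, was higher by 0.37 ± 0.09 (adjusted p = 0.00426). Of the 11, 8 had negative differences, none called, and 2 of these had an unadjusted p under 0.05. The median difference of the slow fibre genes was -0.052. Over energy metabolism and fibre types together, 2 genes were called, 6 without pig 36 and 11 with array weights. Of 56 ribosomal protein genes RPL3 was higher, by 0.27 ± 0.08 (adjusted p = 0.0226), and none of 28 proteasome genes was called (1 with an unadjusted p under 0.05). Of 15 interferon response genes TAP1, a peptide transporter of antigen presentation, was higher by 0.54 ± 0.18 (adjusted p = 0.0307), a call lost in 6 of 17 other settings, and 2 of 7 proliferation genes, TUBA1B and STMN1, were higher by 0.24 and 0.30.

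In the main comparison the genes lower in matrix-rich muscles were fewer and their groups overlapped more. After the arrays were re-centred, more probe sets were lower than higher. PPARGC1A, the coactivator PGC-1alpha that drives mitochondrial biogenesis, ranged from 7.57 to 9.94 (median 8.37) in the matrix-rich and from 7.47 to 11.17 (median 8.97) in the matrix-poor muscles. No matrix-rich muscle lay below every matrix-poor one, but 18 of 20 lay below the matrix-poor median. It was lower by 0.82 ± 0.25, or 1.76-fold (adjusted p = 0.019), and the call was lost with 15 pigs a group (adjusted p = 0.0708), with 30 against 29, with the score from the mean of all probe sets (0.0559) and with the heat shock mean as a covariate (0.0639). RETREG1, a receptor for autophagy of the endoplasmic reticulum, was 8.11 to 11.25 (median 9.91) against 9.33 to 11.91 (median 10.64), lower by 0.80 ± 0.22 (adjusted p = 0.0106). With the heat shock mean as a covariate it differed by -0.52 and was not called (adjusted p = 0.0581). CREM, a transcription factor of the cyclic AMP response, was lower by 0.60 ± 0.17 (adjusted p = 0.00942) and kept its call in all 17 other settings. FOXO1, a transcription factor of fasting and muscle atrophy, was lower by 0.38 ± 0.12 (adjusted p = 0.0191), the lower gene among 14 of atrophy and autophagy, of which CTSH, CTSB and CAPN1, a cathepsin pair and a calpain, were higher by 0.19 to 0.48. The call of FOXO1 was lost with 30 against 29 pigs (adjusted p = 0.119) and with the heat shock mean as a covariate (0.0823). TMEM140, a membrane protein, differed by -0.58 ± 0.14 (adjusted p = 0.00266) and GPAT4, an acyltransferase of glycerolipid synthesis, by -0.45 ± 0.11 (adjusted p = 0.00232). With 30 against 29 pigs neither was called (adjusted p = 0.0786 and 0.0783), nor was TMEM140 with the 5-gene score (0.12). FILIP1, SLC25A33, PANK1, ABHD13 and FNTB, also among the 12 largest negative differences, had differences from -0.60 to -0.42.

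Of 19 heat shock genes measured, 1 was called lower, beside 5.43% of all genes, and 6 were lower at an unadjusted p under 0.05. All 19 had a negative difference, with a median of -0.19. Negative differences were also common elsewhere: 27 of 28 proteasome, 28 of 30 oxidative phosphorylation and 14 of 16 TCA cycle genes, and 2689 of all 4920 genes. The called gene was HSP70.2, an inducible chaperone, at 11.88 to 13.98 (median 12.58) against 12.08 to 13.69 (median 13.13). It was lower by 0.42 ± 0.15 (adjusted p = 0.0454), a call lost in 10 of 17 other settings. Its 2 other tested probe sets differed by -0.78 and -0.51, and both were called. The mean over the 19 ranged from 11.01 to 12.81 (median 11.50) in the matrix-rich and from 11.09 to 12.36 (median 11.84) in the matrix-poor muscles. Pig 36, matrix-rich, had the highest HSP70.2 value of its group, and without it 6 of the 19 were called lower and the lower probe sets numbered 957 in place of 659. With the heat shock mean, taken over values standardised per gene, as a covariate 403 probe sets were lower and 1036 higher.

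The immediate early gene NR4A2, a nuclear receptor induced by stimulation, went the other way, at 5.58 to 8.85 (median 6.97) against 5.14 to 7.32 (median 6.11), higher by 0.82 ± 0.23 (adjusted p = 0.0107). It was 1 of 17 immediate early genes called, beside 15.9% of all genes, and its call was lost in 4 other settings. GEM, a small GTP-binding protein, was higher by 0.90 ± 0.15 (adjusted p = 2.08e-05).

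**Figure D5:**
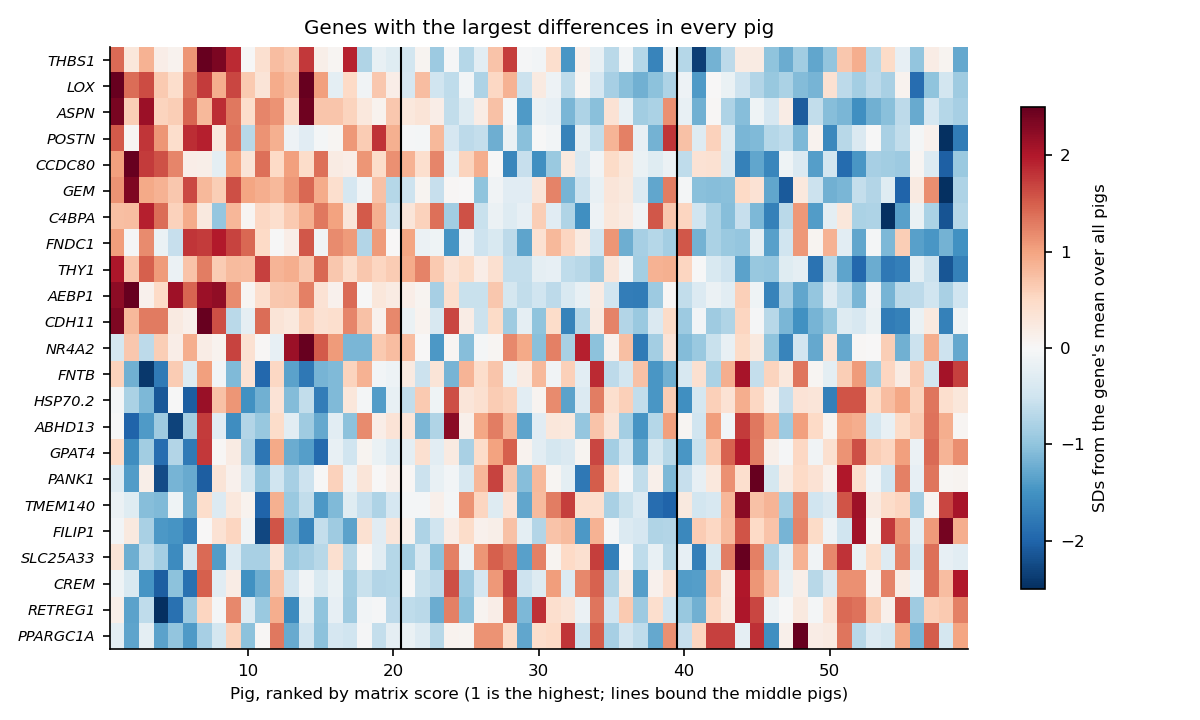
Standardised log2 expression (colour, SD units) of the 12 largest positive and 11 of the 12 largest negative called differences (rows) in all 59 pigs, ordered by matrix score from high to low (columns). The upper genes fade gradually through the 19 middle pigs, and single pigs such as pig 36, the seventh column, break the pattern of the lower genes.

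The 19 middle pigs were left out of the test, but they hold the middle ranks of the same score. For called genes a mean between the groups was thus largely fixed in advance, and it adds no independent evidence. For 768 of the 781 called genes the mean of the middle pigs was between those of the matrix-rich and matrix-poor pigs, beside 2313 of the 4139 genes that were not called. ASPN, for example, had a middle median of 8.97, between 9.49 and 8.60, and LOX one of 7.24, between 8.18 and 7.07. A fit of each gene on the score over all 59 pigs, which shares the 40 arrays, called 522 genes rising with the score (10.6%) and 288 falling (5.85%), and 1544 of the 1858 probe sets called between the groups were called with the same sign.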

How the data were processed

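Total RNA of 59 pig muscles had been labelled and hybridised to Affymetrix porcine arrays, per the labels' protocols. The deposited table holds 1 value per probe set and array, which was read as log2: the authors' processing notes name GCRMA, with the log base and version not given in the sources used here. GCRMA corrects background by probe sequence and quantile-normalises. Differences of dim genes can be compressed on such arrays. Precision depends on how many arrays each group holds and on how much each gene varies between them.

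Of 24123 probe sets, 124 were controls, 10099 had 1 gene symbol in the platform annotation, 198 several and 13826 none. Through Entrez identifiers, 9989 symbols were updated and 110 were kept. Probe sets with a mean of at least 6.27, the median of all, were tested, without 15 of the 8 score genes. The 20 highest and 20 lowest arrays by score were compared with limma 3.58.1 (lmFit and eBayes, R 4.3.3) across all genes and probe sets, with Benjamini-Hochberg adjustment and a threshold of 0.05; the code was tested on simulated data. A gene is represented by its brightest tested probe set; 1020 genes had several.

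The comparison, the score genes and the gene lists (38 lists, 829 genes, 565 on the array, 469 tested) were chosen with earlier results of these data known. Genes named with values were the 12 largest positive and 12 largest negative called differences that followed the score over 59 arrays with an unadjusted p under 0.05, up to 4 called genes per list, all measured collagens, basement membrane and collagen synthesis genes, and listed cell markers; other genes of the lists and genes without overlap were named after their values were seen. The result of 1 gene that the rule names is not reported here. The 14 planned and 3 added alternatives cover the filter, scaling, group size, score and covariates. The macrophage, heat shock and adipocyte covariates were means of a list's tested genes, each standardised over the 59 arrays.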

Additional observations from a re-analysis of the deposited data

How the results depend on the processing

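Of 86 called genes named by the rule, 36 kept their call in all 17 alternatives, and of 1462 values 1328 kept it, 134 lost it and 0 reversed sign; the macrophage covariate ended 34 calls and the split of 30 against 29 pigs ended 23. Among the genes that lost a call in 3 or more alternatives, COL4A2 lost it in 11, BMP4, HSP70.2 and IGF2R in 10, FNTB, LAMB2 and TAP1 in 6, LOXL1 in 5, DDIT3, NR4A2, PPARGC1A and RPL3 in 4, and PDGFRB, SCD, SLC25A33 and STMN1 in 3; CAPN1, DGAT2, FOXO1, FST, SDC4 and TMEM140 lost it in 2. Of 17 named genes that were not called, 3 gained a call: ACTA2 in 6 alternatives, SERPINH1 in 3 and COLGALT1 in 1. Matrix genes called higher numbered 27 to 37 and fibroblast genes 6 to 9 across the alternatives. Probe sets called higher numbered 709 with the macrophage covariate. Probe sets called lower numbered 1320 after re-centring, 1294 with array weights, 403 with the heat shock covariate, 389 with the macrophage covariate and 233 with 30 against 29 pigs. With the macrophage covariate, macrophage genes called higher numbered 0 and actin genes 3. Energy metabolism and fibre genes called were 2 in the main comparison, 11 with array weights, 6 after re-centring and without pig 36, 5 without the 2 arrays of lowest correlation, 4 with the 5-gene score and with the heat shock or adipocyte covariate, and 0 with the macrophage covariate. Heat shock genes called lower were 1 in the main comparison, 7 with array weights, 6 without pig 36, 4 without the 2 arrays of lowest correlation, 3 after re-centring or with gene means, 2 with the slope or the EF1A covariate, and 0 without the filter, with 30 against 29 pigs, the 5-gene or all-probe-set score, the heat shock, EIF1AY, adipocyte or macrophage covariate, or without pigs 44, 19 and 26. Without those 3 pigs of highest score 985 probe sets were higher and 471 lower. The settings without pig 36, without these 3 pigs and with the EF1A covariate were chosen after seeing the data. The cause of these changes was not tested, and the number of arrays differed between some fits. Dim probe sets limit the collagens: COL3A1, COL5A2 and COL11A1 lay below the filter. No paired analysis was possible because all pigs form 1 group in the labels and the pig numbers only name animals.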

Other observations

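Complement genes, lysosomal genes and genes of antigen presentation were put into 3 further lists after the values had been seen, so their counts only describe these data. Of 14 complement genes measured, 10 were called higher in the matrix-rich muscles by limma and 1 lower, beside 10.4% and 5.43% of all genes. The median difference was 0.55. SERPING1, the inhibitor of the first complement proteases, ranged from 10.09 to 10.95 (median 10.46) against 9.44 to 10.43 (median 9.85), with all 20 matrix-rich muscles above the matrix-poor median and a difference of 0.61 ± 0.08 (adjusted p = 2.71e-07). The proteases C1R and C1S themselves were higher by 0.66 ± 0.11 and 0.69 ± 0.12 (adjusted p = 1.24e-05 and 5.15e-05). C4BPA, a chain of the regulator that binds C4, was higher by 0.90 ± 0.15 (adjusted p = 2.27e-05) and C4A by 0.78 ± 0.16 (adjusted p = 0.000746). C8G was the lower member, by 0.16 ± 0.05 (adjusted p = 0.0292), from a dim level. Of these, C1QA, C1QC and C3 also stand on the macrophage or fibroblast lists.

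Of 11 genes of Fc receptors and MHC class II, 8 were called higher, beside 10.4% of all genes. The Fc receptor genes FCGR2B and FCGR3A differed by 0.74 ± 0.15 and 0.67 ± 0.15 (adjusted p = 0.000376 and 0.00129), and the class II genes SLA-DRA and SLA-DQA1 by 0.45 ± 0.13 and 0.45 ± 0.12 (adjusted p = 0.0137 and 0.00648), from probe sets that may share sequence between related genes. The called FCER1G and CD74 also stand on the macrophage list. Of 24 lysosomal genes, 10 were called higher and 1 lower, beside 10.4% and 5.43% of all genes. Of the 10, CTSS, CTSK, CTSB and CTSH already count on the macrophage, protease or atrophy lists. LIPA, the acid lipase, ranged from 7.86 to 9.24 (median 8.29) against 7.07 to 8.37 (median 7.54), higher by 0.72 ± 0.10 (adjusted p = 2.46e-06), and the cholesterol transporter NPC1 was lower by 0.32 ± 0.11 (adjusted p = 0.0398).

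Besides FKBP10, the genes without overlap were ADD3 and ITM2C, found after their values were seen. ADD3, an adducin of the membrane skeleton, ranged from 9.77 to 10.55 (median 9.97) against 9.16 to 9.72 (median 9.43), a difference of 0.61 ± 0.06 (adjusted p = 3.19e-09), and a dimmer probe set of the gene differed by 0.21. ITM2C, an integral membrane protein, ranged from 9.36 to 10.01 (median 9.54) against 8.68 to 9.27 (median 9.00), a difference of 0.61 ± 0.06 (adjusted p = 3.39e-10).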
